A study of Saccharomyces cerevisiae with 6 samples.

Results

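The 46 nuclear genes described here encode the subunits of the respiratory chain and ATP synthase of *Saccharomyces cerevisiae*, together with the transcription factor that activates many of them, and were picked by name out of the 7122 genes of the expression table. They comprise 4 genes of complex II, 9 of complex III, 2 of cytochrome c, 9 of complex IV, 5 of the F1 part of ATP synthase, 9 of its membrane part and stalk (Fo and stalk), 1 inhibitor of ATP synthase, 3 NADH dehydrogenases and 4 subunits of the HAP complex. RNA was compared between 3 WT and 3 *ths1-C268A* samples, named A, B and C in each strain and described as biological replicates. Both strains derive from BY4741, were grown at 30 °C in log phase in YPD, a rich glucose medium, and were then kept at 37 °C for 2 h, so WT cells had the same heat treatment as the mutant. *ths1-C268A* is an engineered change of Cys to Ala in the editing site of threonyl-tRNA synthetase (ThrRS), the enzyme that joins Thr to its tRNA and removes Ser joined by mistake, and the change is also known to make the enzyme less stable at 37 °C. Because it is a point mutation, the mRNA level of *THS1* does not check the strain labels. Whether each strain is a single clone is not given in the sources used here. Each sample held between 16597937 and 19114041 fragments in genes, and expression is given as FPKM, a fragment count corrected for coding length and sequencing depth.

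In yeast, electrons enter the chain through single-subunit NADH dehydrogenases, which pump no protons, and through complex II, the succinate dehydrogenase of the citric acid cycle. They pass over ubiquinone to complex III, over cytochrome c to complex IV, and there to oxygen, and ATP synthase uses the resulting proton gradient. Yeast that grows on glucose ferments most of it and represses many respiratory genes. Hap2, Hap3 and Hap5 bind DNA at CCAAT boxes, and Hap4, whose own gene is repressed by glucose, supplies the activating domain. Cytochrome c and subunit V of complex IV each have an aerobic isoform, *CYC1* and *COX5A*, and a hypoxic isoform, *CYC7* and *COX5B*.

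The box bound by the HAP complex was looked for first, because it is the sequence that many of these genes share. Promoters were taken as the 250 bases before the start codon and the first 50 bases after it, read from the R64 genome of RefSeq, on which the coordinates of all 46 genes in the table fall. CCAAT occurred on either strand in 80.4% of the 46 promoters and in 43.3% of 6001 promoters of protein-coding genes. The longer form TNATTGG, which holds CCAAT on the opposite strand, was found in 67.4% of the 46 and in 16% of all promoters. It was present in 8 of 9 complex IV genes and in 8 of 9 Fo and stalk genes, but in neither cytochrome c gene. Of 38 matches before the start codon, 32 lay more than 100 bases from it, at a median position of -174. A match describes the letters only and does not show that the factor is bound. Bases more than 250 before the start codon were not searched, so a gene without a match may hold a box farther away. The 8 matches before the start codon in complex IV are shown because it is among the groups in which the box was most frequent. They are written 5′ to 3′ with TNATTGG in capitals and 10 bases on each side.
*COX5A*: tcctcgtttgTGATTGGccctacgttt
*COX5B*: taaattgaaaTAATTGGtctattgttt
*COX6*: aaaagggaccTAATTGGtccggtcaaa
*COX7*: aggcagtactTGATTGGctacgccgcg
*COX8*: ttctctcgtaTGATTGGtgcaaaccgt
*COX9*: tactgcaaccTGATTGGcccgctacca
*COX12*: ttctgaaaatTGATTGGtcaatgttat
*COX13*: gtaccgcctcTCATTGGtgggaaaaaa
These windows lie at chrXIV:531568-531594 (plus strand), chrIX:155140-155166 (minus), chrVIII:209478-209504 (plus), chrXIII:779275-779301 (minus), chrXII:910150-910176 (plus), chrIV:334529-334555 (minus), chrXII:225361-225387 (plus) and chrVII:144586-144612 (minus). Of the boxes shown, that of *COX5B* stood nearest to the start codon, at -72, and the others stood between -147 and -217. *COX9* holds a further match, not shown, inside its coding part at 13. *COX4* was the complex IV gene without a match in the bases searched.

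These mRNAs were abundant in both strains at 37 °C. In WT, 40 of the 46 lay in the upper 25% of the 6447 genes tested and 43 lay above their median. *QCR8*, a small subunit of complex III, was the most abundant, at 516, 543 and 601 FPKM in WT A, B and C and at 598, 502 and 672 FPKM in *ths1-C268A* A, B and C. The 3 genes under the median were *CYC1*, *HAP3* and *HAP5*. Subunits of a given complex differed in mean FPKM, a scale already divided by length. The 4 complex II means in WT ran from 129 FPKM for *SDH1* to 372 FPKM for *SDH3*. Those of the 4 HAP subunits ran from 33.4 FPKM for *HAP5* to 171 FPKM for *HAP4*. In WT the 9 complex III means ran from 221 FPKM for *RIP1* to 553 FPKM for *QCR8*, and the 9 complex IV means from 181 FPKM for *COX4* to 513 FPKM for *COX7*. The Fo and stalk genes were less even than those of complexes III and IV, since *ATP19* had a mean of 61.4 FPKM in WT against 251 FPKM for *ATP5*.

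**Figure D1:**
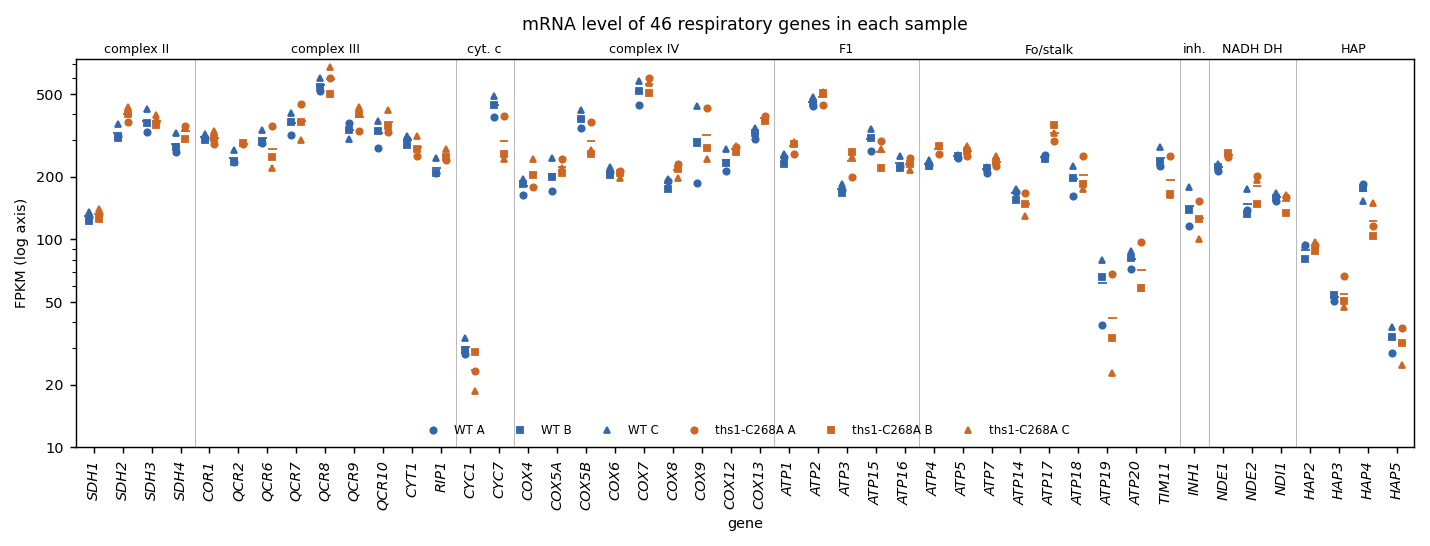
mRNA level (FPKM, log axis) of each of the 46 genes in the 3 WT samples (blue) and the 3 *ths1-C268A* samples (orange), by complex; symbols mark replicates A, B and C and dashes the group means. Most genes sit between 100 and 600 FPKM in both strains, *CYC1* sits near 20 to 30 FPKM, and the 3 *ths1-C268A* points of *HAP4* all lie under those of WT.

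Between the strains, few of these genes passed the test on the values as deposited. Of the 46, 2 rose in *ths1-C268A* (4.35%, where 14.2% of all genes tested rose), 2 fell (4.35%, where 12.1% of all genes fell) and 42 did not pass (8.7% called in all, against 26.4% of all genes). The test was limma on log2(FPKM + 1) with a Benjamini-Hochberg adjusted p under 0.05 over all 6447 genes. The genes that rose were *ATP3* and *ATP17*, subunits of ATP synthase, and those that fell were *HAP4* and *CYC7*. With the correction for gene length described further on, 9 of the 46 were higher (19.6%, against 12.5% of all genes) and 1 lower (2.17%, against 12%). At an unadjusted p under 0.05 there were 11 of the 46, where 2658 of the 6447 genes tested were. The 3 samples of each strain did not overlap for 11 of the 46 (23.9%), against 45.6% of all genes tested. In these bulk samples, fewer cells with an mRNA and less of it per cell cannot be told apart. The median log2 fold change of the 46 was 0.07, with 29 above 0, beside -0.002 over all genes. It was -0.045, with 19 above 0, when every sample was given the same sum over its protein-coding genes, a scaling that moved the median of all genes to -0.12 and the calls over all genes from 916 higher and 783 lower to 524 and 1285. The share of the FPKM denominator outside the listed genes was 18.3 to 18.7% in WT and 10.6 to 13.4% in *ths1-C268A*.

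These counts changed when single samples were left out. Without WT A, WT B or WT C, in turn, no gene of the 46 passed, with 6, 4 and 14 at an unadjusted p under 0.05. Over all genes tested, 456, 356 and 414 were then higher and 394, 290 and 377 lower, against 916 and 783 with all samples. Without *ths1-C268A* A there were 4 higher and 6 lower genes of the 46, and 1088 higher and 1057 lower over all genes tested. The 4 higher genes were *SDH2*, *ATP3*, *ATP4* and *ATP17*, and the 6 lower genes were *QCR6*, *CYC7*, *COX5B*, *ATP19*, *ATP20* and *TIM11*. Without *ths1-C268A* B, 1 gene was higher (*ATP17*) and 1 lower (*CYC1*). The same counts were found without *ths1-C268A* C, with *ATP17* higher and *HAP4* lower. Over all genes these fits gave 601 and 785 higher and 527 and 650 lower.

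**Figure D2:**
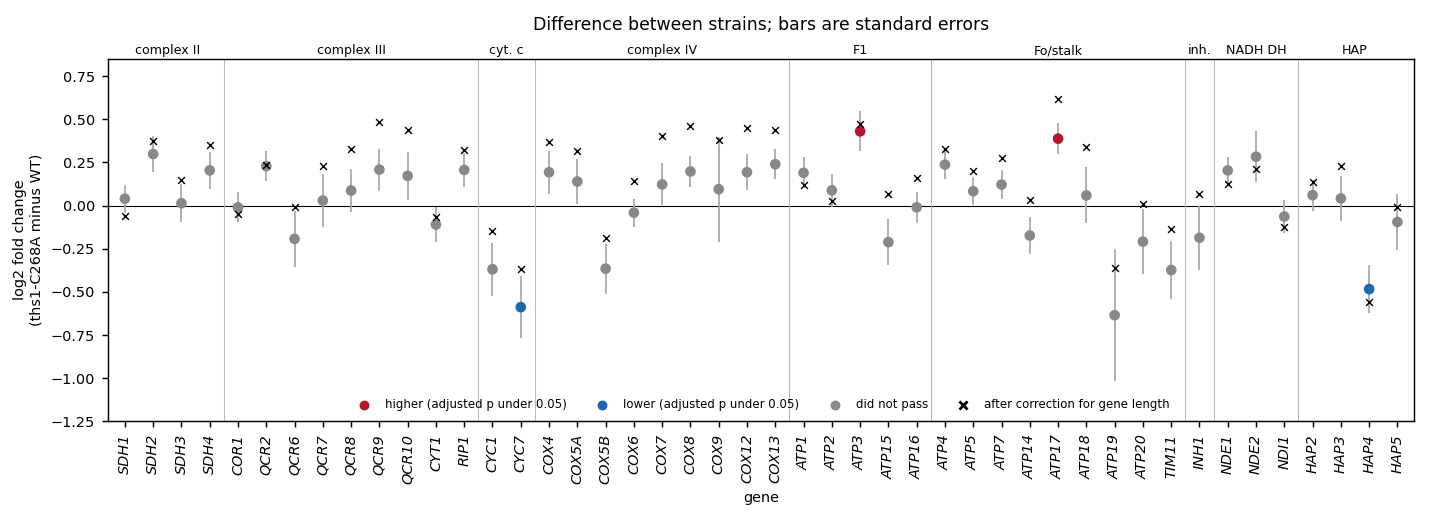
Log2 fold change (*ths1-C268A* minus WT, on log2(FPKM + 1)) of each of the 46 genes, by complex, with bars of 1 standard error; red and blue points passed the test, grey points did not, and crosses give the value after correction for gene length. The highest point is *ATP3* at 0.43 and the lowest *ATP19* at -0.63, and crosses of complex IV genes lie above their points.

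Of the HAP complex, the activating subunit fell and the 3 DNA-binding subunits did not pass the test. *HAP4* (YKL109W) stood at 185, 177 and 152 FPKM in WT A, B and C and at 116, 104 and 149 FPKM in *ths1-C268A* A, B and C. All 3 *ths1-C268A* samples were under all 3 WT samples, although *ths1-C268A* C and WT C differed little. The log2 fold change was -0.48 ± 0.14 (SE, n = 3 per strain; limma adjusted p = 0.0349), or 0.715 of the WT level. The adjusted p was 0.111, 0.113 and 0.0536 without WT A, B and C, 0.0668 and 0.094 without *ths1-C268A* A and B, and 0.0109 without *ths1-C268A* C, all from limma, and 0.063 without the trend of variance on mean. *HAP2* was at 93.7, 80.9 and 93.6 FPKM in WT and at 94.3, 88.1 and 96.8 FPKM in *ths1-C268A* (0.06 ± 0.09). *HAP3* was at 50.4, 54 and 53.8 FPKM in WT and at 67.1, 50.4 and 47.2 FPKM in *ths1-C268A* (0.04 ± 0.13), and only *ths1-C268A* A was above WT. *HAP5*, the least abundant subunit, was at 28.5, 33.9 and 37.8 FPKM in WT and 37.5, 31.9 and 24.8 FPKM in *ths1-C268A* (-0.10 ± 0.16), and only *ths1-C268A* C was under the WT range.

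The promoter of *HAP4* (chrXI:231977-232276, plus strand of R64) holds a single CCAAT box, while that of *CYC7* (chrV:79928-80227, minus strand) holds none. Those of *ATP3* (chrII:315325-315624, plus strand) and *ATP17* (chrIV:1228361-1228660, plus strand) hold a CCAAT box far from the start. They are shown because these are the 4 genes that passed the test. Each runs 5′ to 3′ on the strand of the gene from 250 bases before the start codon to 50 bases after its start. Capitals mark CCAAT or its reverse complement ATTGG, and ATTGTTC or its reverse complement GAACAAT. The letters ATTGTTC are part of the site of the hypoxic repressor Rox1 and were searched after the data were seen.
*HAP4*: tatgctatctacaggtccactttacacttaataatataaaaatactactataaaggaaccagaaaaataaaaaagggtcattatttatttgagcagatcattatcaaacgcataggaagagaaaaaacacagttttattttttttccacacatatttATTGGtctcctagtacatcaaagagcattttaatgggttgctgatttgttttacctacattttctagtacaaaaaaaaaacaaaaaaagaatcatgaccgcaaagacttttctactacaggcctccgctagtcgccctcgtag
*CYC7*: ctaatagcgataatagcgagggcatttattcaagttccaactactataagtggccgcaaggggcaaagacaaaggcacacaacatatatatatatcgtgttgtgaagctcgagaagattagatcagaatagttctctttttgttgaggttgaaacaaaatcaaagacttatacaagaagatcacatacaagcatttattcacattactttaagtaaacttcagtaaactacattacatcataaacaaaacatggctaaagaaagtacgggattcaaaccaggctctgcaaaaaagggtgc
*ATP3*: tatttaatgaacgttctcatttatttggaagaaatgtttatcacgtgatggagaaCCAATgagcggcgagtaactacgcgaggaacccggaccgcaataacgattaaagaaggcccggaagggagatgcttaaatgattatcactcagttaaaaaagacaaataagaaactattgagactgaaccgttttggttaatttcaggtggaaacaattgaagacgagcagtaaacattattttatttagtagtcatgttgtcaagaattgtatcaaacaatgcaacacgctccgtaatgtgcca
*ATP17*: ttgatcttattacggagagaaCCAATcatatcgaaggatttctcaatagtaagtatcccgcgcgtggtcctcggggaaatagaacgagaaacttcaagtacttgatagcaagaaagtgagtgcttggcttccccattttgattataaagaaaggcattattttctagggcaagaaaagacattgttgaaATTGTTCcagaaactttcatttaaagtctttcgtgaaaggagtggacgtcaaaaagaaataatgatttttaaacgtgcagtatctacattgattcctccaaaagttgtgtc
ATTGTTC was found in 7 of the 46 promoters (15.2%) and in 7.65% of all 6001. These were *COX5A*, *COX5B*, *COX6*, *ATP5*, *ATP7*, *ATP17* and *ATP18*. The 31 genes with TNATTGG had a median log2 fold change of 0.09 and the 15 genes without it 0.06.

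In complex II none of the 4 subunits passed the test, and log2 fold changes were above 0 for all 4, or for 2 when samples had the same protein-coding sum. *SDH2*, the iron-sulfur subunit, was at 314, 307 and 358 FPKM in WT and at 368, 401 and 434 FPKM in *ths1-C268A*. The strains did not overlap, and the log2 fold change was 0.30 ± 0.10 (limma adjusted p = 0.0609). *SDH4*, a membrane anchor, was at 264, 279 and 324 FPKM in WT and 352, 303 and 342 FPKM in *ths1-C268A* (0.20 ± 0.11), with WT C inside the range of the mutant. *SDH1*, the flavoprotein subunit, had values of 129, 123 and 136 FPKM in WT and 133, 126 and 140 FPKM in *ths1-C268A* (0.04 ± 0.08). *SDH3*, the other anchor, which also serves the TIM22 import machinery, gave 327, 365 and 422 FPKM in WT and 369, 355 and 397 FPKM in *ths1-C268A* (0.01 ± 0.11). Samples of the same strain thus differed by more than the strains did for *SDH1* and *SDH3*.

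None of the 9 complex III genes passed the test, and 6 of 9 log2 fold changes were above 0, or 4 of 9 when samples had the same protein-coding sum. The core subunit *QCR2* was at 237, 235 and 270 FPKM in WT and at 287, 291 and 290 FPKM in *ths1-C268A*, with no overlap (0.23 ± 0.09, limma adjusted p = 0.0827). *RIP1*, the Rieske iron-sulfur protein that takes electrons from ubiquinol, was at 208, 209 and 247 FPKM in WT and 241, 250 and 274 FPKM in *ths1-C268A* (0.21 ± 0.10). WT C lay among the mutant samples for *RIP1*. *QCR9*, a small subunit whose gene has an intron, was at 364, 336 and 306 FPKM in WT and 331, 401 and 436 FPKM in *ths1-C268A* (0.21 ± 0.12). *QCR6*, the hinge subunit beside cytochrome c1, had the lowest fold change of the complex, with 290, 294 and 338 FPKM in WT and 351, 250 and 220 FPKM in *ths1-C268A* (-0.19 ± 0.16). Its mutant samples lay on both sides of WT. The other 5 genes (*COR1*, *QCR7*, *QCR8*, *QCR10* and *CYT1*) had log2 fold changes between -0.11 and 0.17. The median of the complex was 0.09, or -0.03 on the latter scale.

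The genes of cytochrome c, the mobile carrier between complexes III and IV, both had lower means in *ths1-C268A*, and *CYC7* passed the test. *CYC7* (YEL039C, hypoxic isoform) was at 390, 443 and 491 FPKM in WT and at 392, 259 and 245 FPKM in *ths1-C268A*. The mutant samples B and C were under all WT samples, whereas A was close to WT A, so the strains overlapped. The log2 fold change was -0.59 ± 0.18 (limma adjusted p = 0.0423), a level of 0.665 of WT. The adjusted p in limma was 0.0665, 0.114 and 0.134 without WT A, B and C, 0.122 and 0.115 without *ths1-C268A* B and C, and 0.00464 without *ths1-C268A* A. It was 0.0728 in limma without the trend and 0.0536 with no filter on low values. After correction for gene length the log2 fold change was -0.37 (limma adjusted p = 0.072). *CYC1* (YJR048W, the main aerobic isoform) was at 28, 29.4 and 33.7 FPKM in WT and 23.3, 28.6 and 18.8 FPKM in *ths1-C268A* (-0.37 ± 0.15, limma adjusted p = 0.107). It did pass, as lower, without *ths1-C268A* B and with the same protein-coding sum in each sample. *CYC1* was the least abundant of the 46 in WT and stood far under *CYC7* in every sample. The coding sequences of *CYC1* and *CYC7* are 77% identical, with a longest shared run of 35 bp, and no stretch of 50 bp of any of the 46 genes occurred elsewhere in the genome.

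None of the 9 complex IV genes passed the test, and 7 of 9 log2 fold changes were above 0, or 6 of 9 with the same protein-coding sum. *COX13* (subunit VIa) was at 304, 325 and 344 FPKM in WT and 392, 373 and 382 FPKM in *ths1-C268A*, without overlap (0.24 ± 0.09, limma adjusted p = 0.0699). *COX8* (subunit VIII) was at 192, 174 and 196 FPKM in WT and at 230, 217 and 198 FPKM in *ths1-C268A* (0.20 ± 0.09). The strains did not overlap, but *ths1-C268A* C and WT C were almost equal. The aerobic isoform *COX5A* was at 172, 199 and 246 FPKM in WT and at 243, 210 and 221 FPKM in *ths1-C268A* (0.14 ± 0.13). The hypoxic isoform *COX5B* was at 343, 380 and 419 FPKM in WT and at 367, 257 and 270 FPKM in *ths1-C268A* (-0.37 ± 0.15, limma adjusted p = 0.0946). As for *CYC7*, samples B and C of the mutant were under all WT samples and sample A was not. *COX5B* passed without *ths1-C268A* A (limma adjusted p = 0.0119). The other 5 genes (*COX4*, *COX6*, *COX7*, *COX9* and *COX12*) had log2 fold changes between -0.04 and 0.19. *COX9* (subunit VIIa) varied most within WT, with 188, 290 and 439 FPKM, and gave 431, 277 and 245 FPKM in *ths1-C268A*.

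The ratio of paired isoforms within a sample does not depend on how the sample was scaled. In WT A, B and C, *COX5A* over *COX5B* was 0.5, 0.524 and 0.586, against 0.66, 0.816 and 0.817 in samples A, B and C of the mutant. All 3 mutant samples were above all 3 WT samples, and the log2 ratio differed by 0.51. The exact permutation test, two-sided, gave p = 0.1, the smallest p that 3 against 3 samples allow, and 0.3 after adjustment over the 3 ratios. In WT, *CYC1* over *CYC7* was 0.0718, 0.0665 and 0.0687, against 0.0595, 0.111 and 0.0767 in the mutant, with overlap (exact permutation p = 0.7, adjusted 0.8). The ratio of the external NADH dehydrogenases, *NDE1* over *NDE2*, was 1.54, 1.68 and 1.33 in WT, against 1.24, 1.76 and 1.33 in the mutant, also with overlap (exact permutation p = 0.8, adjusted 0.8).

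**Figure D3:**
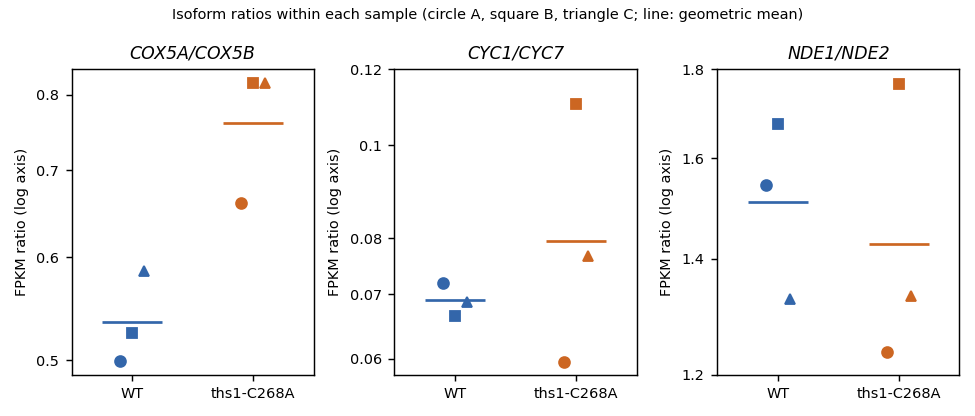
Ratio of the FPKM of paired isoforms (log axis) in each WT (blue) and *ths1-C268A* (orange) sample, with lines at the geometric means. The 3 *ths1-C268A* ratios of *COX5A* to *COX5B*, from 0.66 to 0.817, lie above the WT ratios, from 0.5 to 0.586, while the other pairs overlap.

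The *COX5A* and *COX5B* coding sequences are 66.4% identical with a longest shared run of 12 bp, so their fragments are not readily mixed. Their promoters, chrXIV:531475-531774 and chrIX:154972-155271 on the plus strand of R64, are shown because the ratio of this pair separated the strains, and both hold CCAAT boxes and an ATTGTTC. They are drawn to the same limits and with the same capitals as those of *HAP4*. The intron of *COX5B* begins inside its start codon, so its bases after the start are intron.
*COX5A*: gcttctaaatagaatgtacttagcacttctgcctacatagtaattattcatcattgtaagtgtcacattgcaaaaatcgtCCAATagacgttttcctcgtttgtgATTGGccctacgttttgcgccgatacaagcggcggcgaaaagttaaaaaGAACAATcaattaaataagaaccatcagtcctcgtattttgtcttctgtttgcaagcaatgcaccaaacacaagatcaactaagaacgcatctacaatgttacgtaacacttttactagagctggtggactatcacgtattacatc
*COX5B*: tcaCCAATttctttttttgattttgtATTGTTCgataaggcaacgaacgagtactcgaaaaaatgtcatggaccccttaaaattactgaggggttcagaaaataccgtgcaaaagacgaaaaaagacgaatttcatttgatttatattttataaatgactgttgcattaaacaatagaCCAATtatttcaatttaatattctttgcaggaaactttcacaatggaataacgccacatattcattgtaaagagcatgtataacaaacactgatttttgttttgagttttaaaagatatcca
In *COX5A* the boxes stand upstream of ATTGTTC, whereas in *COX5B* a box and ATTGTTC stand together at the far end and a further box near the start.

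Of the F1 part of ATP synthase, which carries the catalytic sites, 1 of 5 genes rose. *ATP3* (YBR039W), the gamma subunit of the rotating central stalk, was at 174, 167 and 185 FPKM in WT and at 199, 265 and 250 FPKM in *ths1-C268A*. Every mutant sample was above every WT sample, and the log2 fold change was 0.43 ± 0.12 (limma adjusted p = 0.0286), or 1.35-fold. It kept this side of the threshold without *ths1-C268A* A (limma adjusted p = 0.00553), but not without WT A, B or C (0.0838, 0.11 and 0.0633) or *ths1-C268A* B or C (0.0764 and 0.0703). The limma adjusted p was 0.0612 with the same protein-coding sum in each sample (log2 fold change 0.31) and 0.0517 without the trend of variance on mean. The alpha subunit *ATP1* was at 248, 231 and 257 FPKM in WT and at 258, 288 and 296 FPKM in *ths1-C268A* (0.19 ± 0.09), with WT C and mutant A nearly equal. A dubious open reading frame, YBL100C, overlaps *ATP1* on the opposite strand, and how reads were assigned by strand is not given in the sources used here. *ATP15*, the epsilon subunit of the central stalk, was at 266, 309 and 338 FPKM in WT and at 297, 221 and 273 FPKM in *ths1-C268A* (-0.21 ± 0.13). The gamma and epsilon subunits of the same stalk thus had log2 fold changes of opposite sign, although of these only *ATP3* passed and *ATP15* was at 0.07 after the correction for gene length described further on. *ATP2*, the beta subunit, and *ATP16*, the delta subunit, had log2 fold changes of 0.09 and -0.01.

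Among the 9 Fo and stalk genes, which form the membrane part and the peripheral stalk, *ATP17* rose. *ATP17* (YDR377W), subunit f of the membrane part, was at 254, 243 and 249 FPKM in WT and at 299, 356 and 325 FPKM in *ths1-C268A*. The strains were well apart, with a log2 fold change of 0.39 ± 0.09 (limma adjusted p = 0.0179), or 1.31-fold. It passed without any 1 of the mutant samples, and had a limma adjusted p of 0.0567, 0.0872 and 0.0597 without WT A, B and C. *ATP4*, subunit b of the peripheral stalk, was at 228, 226 and 240 FPKM in WT and at 257, 280 and 283 FPKM in *ths1-C268A*, without overlap (0.24 ± 0.08, limma adjusted p = 0.0611). *ATP5* and *ATP7*, also of the peripheral stalk, had log2 fold changes of 0.08 and 0.12, and *ATP14* of the same stalk, which a further reading frame overlaps on its own strand, -0.17. With the same protein-coding sum in each sample *ATP5* had the opposite sign, and with the length correction *ATP14* did.

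*TIM11* (subunit e), *ATP20* (subunit g) and *ATP19* (subunit k), which are associated with ATP synthase dimers, had lower means in *ths1-C268A* and did not pass the test. Of these, *ATP20* was described in full after its value was seen. After the length correction *ATP20* was at 0.01, *TIM11* at -0.14 and *ATP19* at -0.36. *TIM11* was at 227, 236 and 278 FPKM in WT and at 251, 165 and 164 FPKM in *ths1-C268A* (-0.37 ± 0.17, limma adjusted p = 0.13). *ATP20* was at 72.2, 81.5 and 88.1 FPKM in WT and at 97, 58.7 and 58.5 FPKM in *ths1-C268A* (-0.21 ± 0.19). *ATP19* was at 38.9, 65.7 and 79.6 FPKM in WT and at 68.6, 33.7 and 22.7 FPKM in *ths1-C268A* (-0.63 ± 0.38). In all 3 genes, mutant samples B and C were under all WT samples and mutant A was not. Each of the 3 passed without *ths1-C268A* A, *TIM11* with a limma adjusted p of 0.00898. *INH1*, the inhibitor that stops the F1 part from hydrolysing ATP, was at 116, 138 and 179 FPKM in WT and 153, 126 and 101 FPKM in *ths1-C268A* (-0.19 ± 0.19, and 0.07 after the length correction), and the strains overlapped. TNATTGG was in 8 of the 9 Fo and stalk genes. Of these, *ATP4*, *ATP7*, *ATP18* and *ATP14*, whose boxes are not shown, had log2 fold changes of 0.24, 0.12, 0.06 and -0.17. The HAP boxes of *ATP17*, *ATP19*, *ATP20* and *TIM11* are written in the same way as those of complex IV. They were picked after the values were seen, because *ATP17* rose and the others had lower means without passing the test.
*ATP17*: tccttcgataTGATTGGttctctccgt
*ATP19*: atctcgatggTGATTGGtcagagtccg
*ATP20*: ttcttattccTGATTGGctgaaagaaa
*TIM11*: atctccacgcTAATTGGtccgcggagc
They lie at chrIV:1228372-1228398 (minus strand), chrXV:185292-185318 (plus), chrXVI:599689-599715 (plus) and chrIV:1112422-1112448 (minus), and *TIM11* holds a further match at -129.

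The NADH dehydrogenases, which stand in for the complex I that this yeast lacks, did not pass the test. *NDE1*, which oxidises NADH on the outer face of the inner membrane, was at 213, 222 and 232 FPKM in WT and at 251, 260 and 257 FPKM in *ths1-C268A*. The strains did not overlap, and the log2 fold change was 0.20 ± 0.08 (limma adjusted p = 0.0828). *NDE2*, the second external enzyme, was at 138, 133 and 174 FPKM in WT and at 203, 147 and 193 FPKM in *ths1-C268A* (0.28 ± 0.15), with mutant B inside the WT range. *NDI1*, the internal enzyme, was at 153, 158 and 167 FPKM in WT and at 160, 135 and 164 FPKM in *ths1-C268A* (-0.06 ± 0.10).

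The 46 genes had a common order of samples in WT but not in *ths1-C268A*. WT C was the highest WT sample for 41 of the 46 (89.1%) and for 37.4% of all genes tested, and WT A was the lowest for 29 of the 46 (63%) and for 34.6% of all genes. In *ths1-C268A*, samples A, B and C were the highest for 22, 5 and 19 of the 46 and the lowest for 16, 14 and 16. The highest WT sample exceeded the lowest by a median of 1.18 times (range 1.03 to 2.34), and in *ths1-C268A* by 1.23 times (1.01 to 3.02). The genes are short, with a median coding length of 459 bp against 1143 bp over protein-coding genes, and 29 of the 46 are under 600 bp. Length moved with the samples: over 6176 protein-coding genes the Spearman correlation of length with a sample's deviation from the mean was between -0.434 and 0.391 in the 6 samples, and that with the log2 fold change was 0.371. These correlations are across genes, which share libraries and are not independent replicates.

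With a loess correction for gene length in each sample, 9 of the 46 were higher in *ths1-C268A* (19.6%, where 12.5% of all genes were higher) and 1, *HAP4*, was lower (2.17%, where 12% of all genes were lower). The 9 were *SDH2* and *SDH4* of complex II, *COX7*, *COX8*, *COX12* and *COX13* of complex IV, and *ATP3*, *ATP4* and *ATP17* of ATP synthase. The median log2 fold change of the 46 was then 0.18, and that of complex IV went from 0.14 to 0.38. The correlation between length and fold change among the 46 genes went from 0.181 to -0.304, so after the correction the shorter of these genes had the higher values. *COX13*, for example, went from 0.24 to 0.44, and *HAP4*, a long gene of 1665 bp, from -0.48 to -0.56 (limma adjusted p = 0.0226).

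**Figure D4:**
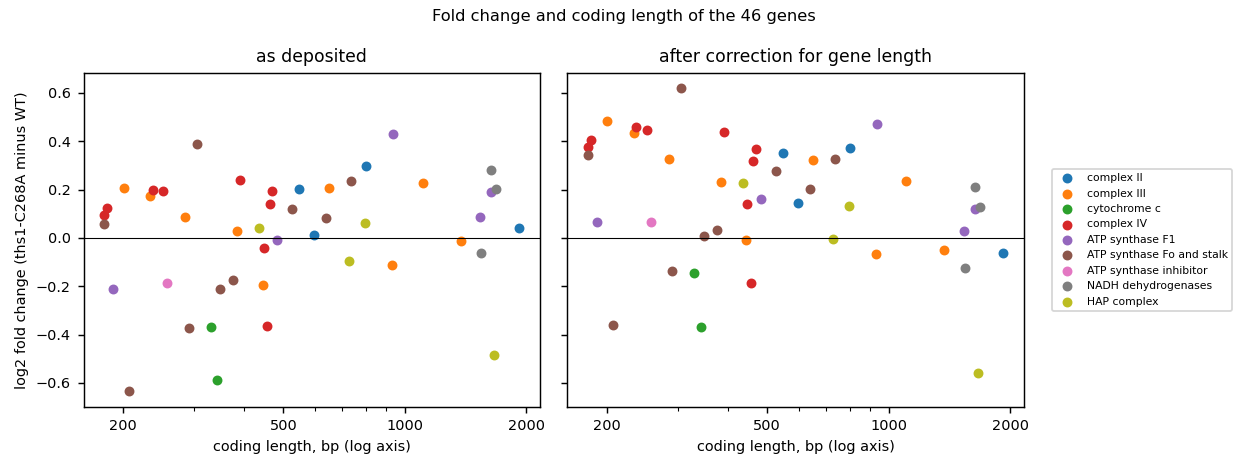
Log2 fold change (*ths1-C268A* minus WT) against coding length (bp, log axis) of the 46 genes as deposited (left) and after the correction for gene length (right), coloured by complex. Spearman's rho is 0.181 on the left and -0.304 on the right, where most genes shorter than 600 bp lie above 0.

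Lists made up mostly of genes that build the complexes were counted next to the subunits. They also hold paralogs of complex II subunits, the ATP synthase regulators *STF1* and *STF2*, and *COX26*, a subunit of complex IV. In the list of complex IV assembly and translation of the mitochondrial *COX* mRNAs, 12 of 35 genes fell (34.3%, where 12.1% of all genes fell) and none rose, and their median log2 fold change was -0.25. An unadjusted p under 0.05 was found for 15 of the 35, beside 2658 of the 6447 genes tested. *SCO1*, which carries copper to complex IV, was at 82.4, 95.7 and 108 FPKM in WT and at 54.9, 37.6 and 50.9 FPKM in *ths1-C268A* (-0.99 ± 0.15, limma adjusted p = 0.00401). *COX23*, a small protein of the intermembrane space needed for complex IV, was at 35.7, 41.3 and 42.2 FPKM in WT and at 23.7, 27.8 and 24.7 FPKM in *ths1-C268A* (-0.63 ± 0.11, limma adjusted p = 0.00578). *COX18*, which inserts part of Cox2 into the membrane, had a log2 fold change of -0.45 ± 0.10 (limma adjusted p = 0.017). The 3 samples of each strain did not overlap for these genes. After the correction for length, 8 of the 35 fell (22.9%, where 12% of all genes were lower) and 1 rose, and the median was -0.17.

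Among the complex III assembly genes 5 of 14 were at an unadjusted p under 0.05, beside the same 2658 of 6447. Of the 14, 3 fell (21.4%, beside the same 12.1%) and none rose. These were *BCA1* (-0.34 ± 0.08), *CBP6* (-0.39 ± 0.11), which helps to translate cytochrome b, and *BCS1* (-0.30 ± 0.08), which moves Rip1 into place. After the length correction *BCA1* and *BCS1* passed and *CBP6* did not, and 3 of the 14 were lower. *SDH6* (-0.53 ± 0.15, limma adjusted p = 0.0326), which protects the iron-sulfur clusters of Sdh2, was the gene that fell of 9 in the complex II list (11.1%), and 6 were at an unadjusted p under 0.05. After the length correction none of the 9 passed. Of 15 ATP synthase assembly genes, *FMC1* (-0.50 ± 0.14) fell and *NCA3* (0.64 ± 0.10, limma adjusted p = 0.0044) rose (6.67% in each direction, beside 12.1% lower and 14.2% higher over all genes), and after the length correction *NCA3* passed and *FMC1* did not. The medians of these lists were -0.23 for complex III, -0.32 for complex II and -0.05 for ATP synthase, where the subunits of complexes III and II had medians of 0.09 and 0.12 and the Fo and stalk genes 0.06. The difference between subunits and these lists was not tested.

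**Figure D5:**
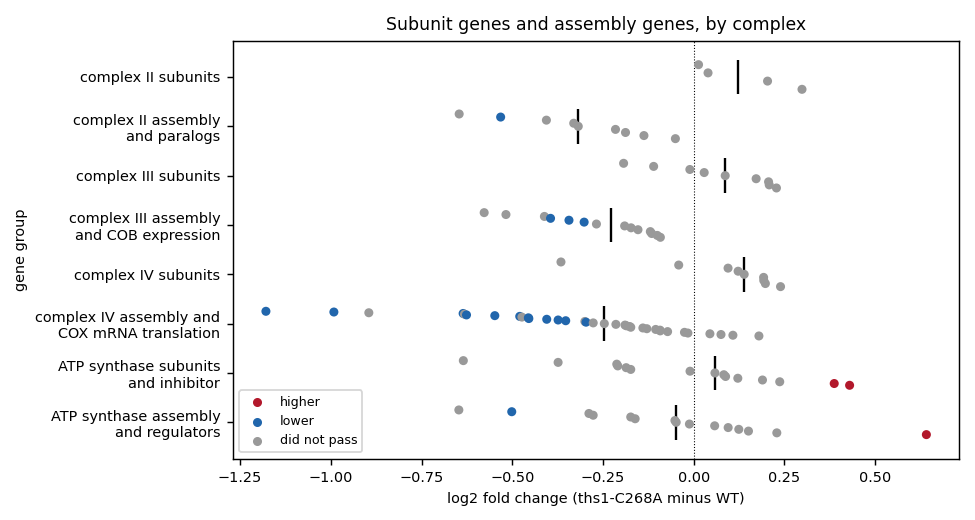
Log2 fold change (*ths1-C268A* minus WT) of subunit genes and of the lists of assembly and related genes of each complex, each point a gene, red or blue where the test was passed, with a bar at the median of each group. The medians of complex IV are 0.14 for subunits and -0.25 for the assembly list, and the 12 blue points of the latter reach -1.18.

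The chain's cofactors and other inputs showed calls in both directions, beside 14.2% higher and 12.1% lower over all genes tested. In heme synthesis, *HEM1* (0.38 ± 0.08), which makes aminolevulinic acid, rose, and *HEM12* (-0.82 ± 0.14) and *HEM2* (-0.48 ± 0.09), which act further along, fell, among 9 genes (11.1% higher, 22.2% lower). In ubiquinone synthesis 2 of 11 genes rose (18.2%), *COQ2* (0.48 ± 0.12) and *COQ11* (0.32 ± 0.10), and 2 fell (18.2%), *COQ7* (-0.40 ± 0.10) and *COQ1* (-0.36 ± 0.09). A gene on the opposite strand overlaps *COQ2*. Of 6 other dehydrogenases that feed the chain, *PUT1*, the proline dehydrogenase, rose from 71.5, 58 and 69.3 FPKM in WT to 167, 140 and 163 FPKM (1.23 ± 0.11, limma adjusted p = 0.000361), and so did *CYB2*, the lactate dehydrogenase (0.40 ± 0.11), which did not pass after the length correction. The share higher among the 6 was 33.3%, and 16.7% after that correction. None of 7 ADP/ATP and phosphate carrier genes passed the limma test, with 2 at an unadjusted p under 0.05, beside 2658 of the 6447 genes tested.

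Of 12 other regulators of respiratory and hypoxic genes, *MOT3* (0.48 ± 0.10, limma adjusted p = 0.011), a repressor of hypoxic genes, and *MIG1* (0.40 ± 0.09, limma adjusted p = 0.0142), the glucose repressor, rose and none fell. At an unadjusted p under 0.05 there were 4 of the 12, beside 2658 of the 6447 genes tested. The share that rose was 16.7%, beside 14.2% of all genes tested. After the length correction *MOT3* and *MIG1* still passed, and *UPC2*, named after its value was seen, was lower (8.33%, where 12% of all genes were lower). Of 5 hypoxic genes tested, *CYC7* and *ANB1* fell (40%, beside 12.1% of all genes tested). *ANB1* was at 39.6, 40.2 and 26.6 FPKM in WT and 13.8, 24.3 and 15.1 FPKM in *ths1-C268A* (-0.98 ± 0.23, limma adjusted p = 0.0175). Its near-identical copy *HYP2*, which a gene on the opposite strand overlaps, was listed at 0 in every sample, so the value of *ANB1* is uncertain. The reason for these values of 0 was not tested. After the length correction neither *CYC7* nor *ANB1* passed. The hypoxic *COX5B* and *AAC3* (-0.57 ± 0.19, limma adjusted p = 0.0577, named after its value was seen) did not pass. Neither did *HEM13* (-0.16 ± 0.15, limma adjusted p = 0.443), also named after its value was seen. *CYC7* and *COX5B* are among the 46 and were described above.

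The 7 subunits encoded by mitochondrial DNA could not be compared with their nuclear partners. *COB*, *COX1*, *COX2*, *COX3*, *ATP6*, *ATP8* and *OLI1* had between 0 and 14 fragments each over all 6 samples, and none reached the mean of 1 FPKM needed for the test. How libraries were selected for RNA type is not given in the sources used here, and these counts say nothing of the level of the mitochondrial mRNAs in the cells.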

How the data were processed

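The authors deposited FPKM values for each gene, aligned with HISAT2 per the submitters' processing notes. The sources used here do not give the version, the counting tool, the strand setting or how RNA was selected. FPKM multiplied by length were divided by each sample's smallest step, which gave whole fragments within 0.01 for 100% of values. Novogene made the libraries from total RNA (Qiagen kit).

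Strains were compared with limma 3.58.1 in R 4.3.3 (trended empirical Bayes, two-sided) on log2(FPKM + 1), which understates changes of low genes, for 6447 genes that averaged 1 FPKM or more. All 46 members passed this filter. Isoform ratios used an exact permutation test. The study names no test for these data. p-values measure the spread between the 3 samples of each strain. Samples of the same strain differed beyond counting noise, with a chi-square per degree of freedom of 7.72 or more, so none was counted as a repeat.

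Length correction was by loess (span 0.5) on the deviations of each sample over protein-coding genes. Named in full were the HAP subunits, paired isoforms, *NDI1*, *INH1*, and in each other complex the 3 genes with the smallest p and those with the highest and lowest fold change; of each other list, up to 3 genes per direction with the smallest p. *QCR8*, *COX9* and *ATP20* lie outside this rule and were described in full after their values were seen. Members and lists were chosen with earlier results of these data known. The test was checked on simulated data.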

Additional observations from a re-analysis of the deposited data

How the results depend on the processing

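Counts of the 46 genes past the threshold (2 higher and 2 lower) kept within 1.5 times for pseudocounts of 0.1 and 5, a mean of at least 10 FPKM and median-ratio scaling. They were 2 and 1 with no filter, 1 and 3 with an equal protein-coding sum per sample, 1 and 0 in limma without the trend (9 at an unadjusted p under 0.05), 2 and 4 in limma-voom on recovered fragments, 9 and 1 with the correction for gene length, and 0 and 0 at an adjusted p under 0.01 (11 at an unadjusted p under 0.05). Leaving out each sample in turn gave 0 to 4 higher and 0 to 6 lower. Over all genes, 916 higher and 783 lower became 524 and 1285 with the equal sum, 613 and 1388 in limma-voom, and 296 and 248 at an adjusted p under 0.01, and each sample left out gave 356 to 1088 higher and 290 to 1057 lower. Log2 fold changes of the 29 genes named in full, each under 17 alternatives, stayed on the same side of the threshold in 446 comparisons, lost the call in 27 and gained it in 20, and no called value changed sign. The difference in log2 *COX5A*/*COX5B* was 0.456 to 0.609 without each sample. TNATTGG and ATTGTTC in place of CCAAT gave 67.4% and 15.2% of promoters, the latter chosen after the data were seen. The causes of these changes were not tested.

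With the replicate letters as a replicate block, 2 genes were higher and 0 lower (10 at an unadjusted p under 0.05), and 10 and 1 with the length correction. The labels do not say whether the letters pair the samples. The correlations between same-lettered samples were -0.232, 0.0618 and -0.0115, and those between samples of different letters ran from -0.205 to 0.209. These values cannot decide whether samples shared a culture or preparation. edgeR and DESeq2 were not run, because the deposited unit is FPKM.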
